A study of Homo sapiens with 4 samples.

Results

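The genes described here are 10 genes of the microRNA pathway: the Argonaute genes AGO1, AGO2, AGO3 and AGO4, the TNRC6 genes TNRC6A, TNRC6B and TNRC6C, and the processing genes DICER1, DROSHA and DGCR8. They were chosen by name, as genes of this pathway, out of 19798 measured genes, with earlier results of these data known. They were read through the 39 probe sets that the platform annotation assigned to 1 of them alone. RNA was profiled on 4 one-colour arrays, 24 h after transfection, from the dicer- derivative of HCT-116, a line grown from a human colon cancer and here altered in its Dicer gene. One group received 10 nM of a miR-124 duplex with a segmented guide strand, labelled G10.12/P (1 array), another received 10 nM of the same duplex with an intact guide strand, labelled G/P (1 array), and the remaining cells were mock-transfected (2 arrays). All 4 arrays carry the Dicer alteration, and the labels give neither its nature nor whether the line is 1 clone.

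MicroRNA precursors are cut in the nucleus by the Microprocessor, made of the nuclease Drosha and its RNA-binding partner DGCR8, and in the cytoplasm by Dicer. One strand of the resulting duplex is held by an Argonaute protein, which pairs with messenger RNAs through the seed of the microRNA, and TNRC6 proteins (GW182) tie Argonaute to the enzymes that shorten poly(A) tails and silence the message. A transfected duplex such as miR-124 enters this pathway after the Dicer step, and the series asks whether activity through the seed persists when the guide strand is segmented.

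Median intensity over all probe sets was 45.3 on the segmented array, 46.3 on the intact array, and 44.3 and 42.6 on the mock arrays. Levels below are log2 intensities of the brightest probe set of a gene, and changes are log2 differences from the mean of the mock arrays. Changes were tested with limma across all genes at an adjusted p of 0.05. Each duplex has 1 array, so the test assumes that this array varies like the mock pair. Whether the mock samples were separate cultures is not labelled, so the p-values may measure technical spread only. Both comparisons with mock use the same mock arrays, so their values for a gene are not independent. Of the colon epithelial markers, EPCAM, CDH1 and KRT19 had mock levels of 13.04, 11.04 and 11.11, while VIL1, CEACAM5 and LGR5 had 2.98, 2.00 and 2.25. No detection call was used here, so which low levels lie above background was not tested. Of 9 measured colon markers, 1 was called higher with the segmented duplex, TSPAN8, at 1.49 (limma adjusted p = 0.0377), and 3 with the intact duplex, TSPAN8 at 1.99, CDH1 at 0.79 and CDX2 at 0.69 (limma adjusted p = 0.00949, 0.0227 and 0.0291). The 10 markers of other cell types had mean mock levels from 3.22 to 7.02, the highest being ALB, against a median of 6.62 over all genes. Of these 10 markers 0 passed with the segmented duplex by limma's adjusted p (0 at an unadjusted p under 0.05). With the intact duplex 1 was lower, GFAP, whose mean mock level was 3.50. Over all genes, 5.99% passed with the segmented and 24.9% with the intact duplex, and the part of any such marker in the results below was not tested.

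With the segmented duplex 1 of the 10 genes passed the test, AGO4, which was higher, where 5.99% of all genes passed in either direction. With the intact duplex 2 passed, AGO4 and TNRC6C, both higher, where 24.9% of all genes passed and 14.5% were higher. The median change of the 10 genes was 0.19 with the segmented and 0.05 with the intact duplex, against 0.01 and 0.02 over all genes. By size alone, a distance of 1.5-fold or more from each mock array in the same direction, AGO4 stood out with the segmented duplex (12.3% of all genes did), and AGO4 and TNRC6C with the intact duplex (23.2%). The mock arrays themselves were that far apart in 3.23% of all genes. The share of the 10 genes called thus stood near the share of all genes called in both comparisons.

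**Figure D1:**
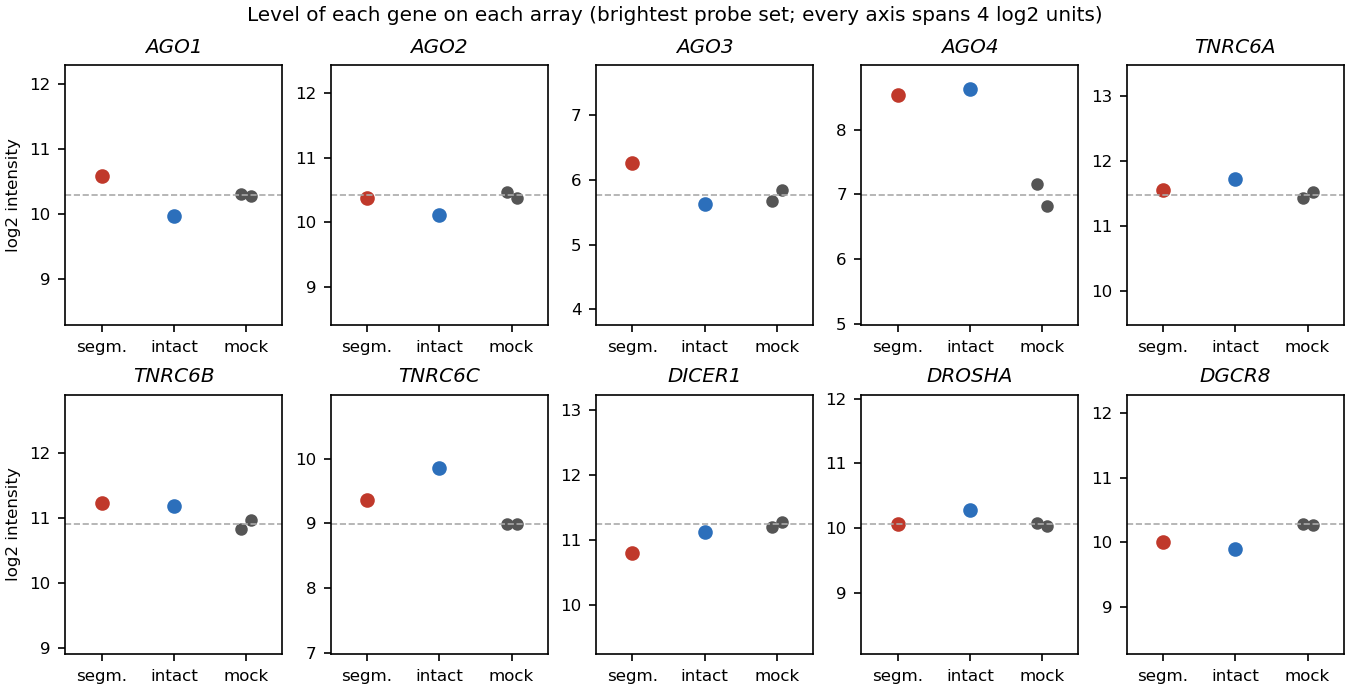
Log2 intensity of each of the 10 genes (brightest probe set) with the segmented duplex (red, 1 array), the intact duplex (blue, 1 array) and mock transfection (grey, 2 arrays, dashed line at their mean). All axes span 4 log2 units; AGO4 stands at 8.53 and 8.62 with the duplexes, above mock levels of 7.17 and 6.82, and the other genes lie within 0.9 of their mock mean.

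AGO4 codes for an Argonaute that binds microRNAs and is not known as a main slicer of target RNA. Its log2 level was 8.53 with the segmented duplex and 8.62 with the intact duplex, against 7.17 and 6.82 on the mock arrays. Both duplex arrays lay above both mock arrays, although the mock arrays themselves were 0.35 apart. AGO4 rose by 1.54 with the segmented duplex, a 2.91-fold difference (limma SE 0.20, adjusted p = 0.0416). It rose by 1.63 with the intact duplex, a 3.10-fold difference (limma SE 0.20, adjusted p = 0.0143). All 5 AGO4 probe sets were higher on both duplex arrays than on both mock arrays. The share of all probe sets that lie this way was not counted, and probe sets of a gene on the same arrays are not independent. The changes of the 5 AGO4 probe sets ran from 0.69 to 1.54 with the segmented duplex and from 0.63 to 1.63 with the intact duplex. In a fit over all 52377 probe sets, which adjusts over more tests, 4 of the 5 passed with the intact duplex, where 17.1% of all probe sets passed. None of the 5 passed with the segmented duplex, with limma adjusted p-values from 0.0552 to 0.139, where 1.39% of all probe sets passed. At an unadjusted p under 0.05 there, 5 of 5 did, as did 22.2% of all probe sets. The 5 AGO4 probe sets thus lay on the same side of mock with both duplexes, and the call of the gene with the segmented duplex lay close to the threshold.

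AGO4, AGO1 and AGO3 are 3 protein-coding genes in a row on chromosome 1, all on the forward strand. Whether the changes of these 3 genes differ from each other was not tested. The 300 bases around their annotated starts (250 before, 50 after) are shown because AGO4 passed the test and AGO1 and AGO3 did not. They are RefSeq sequences of GRCh38.p14, at chr1:35807766-35808065 (AGO4), chr1:35882959-35883258 (AGO1) and chr1:35930855-35931154 (AGO3), all on the plus strand. Capitals mark each match to the GC box letters GGGCGG, searched on both strands.
AGO4: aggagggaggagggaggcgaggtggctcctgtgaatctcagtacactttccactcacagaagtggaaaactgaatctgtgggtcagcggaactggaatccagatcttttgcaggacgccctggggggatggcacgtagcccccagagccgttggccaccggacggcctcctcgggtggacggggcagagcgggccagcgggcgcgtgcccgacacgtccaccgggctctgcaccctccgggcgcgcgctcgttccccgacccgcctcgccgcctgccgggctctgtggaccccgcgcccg
AGO1: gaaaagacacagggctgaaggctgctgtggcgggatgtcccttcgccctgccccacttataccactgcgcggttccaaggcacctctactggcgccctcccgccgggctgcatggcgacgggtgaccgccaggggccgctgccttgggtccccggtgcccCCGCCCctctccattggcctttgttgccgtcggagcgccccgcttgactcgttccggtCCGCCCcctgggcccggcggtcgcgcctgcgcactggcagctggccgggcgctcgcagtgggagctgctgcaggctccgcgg
AGO3: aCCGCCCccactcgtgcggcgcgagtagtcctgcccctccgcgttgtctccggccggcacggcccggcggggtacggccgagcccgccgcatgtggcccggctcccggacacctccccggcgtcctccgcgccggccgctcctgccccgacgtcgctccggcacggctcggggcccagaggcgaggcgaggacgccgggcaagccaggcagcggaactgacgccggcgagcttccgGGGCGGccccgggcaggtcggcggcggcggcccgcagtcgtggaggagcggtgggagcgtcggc
The AGO4 window holds 0 matches to the GC box, against 2 in that of AGO1 and 2 in that of AGO3. Over 35116 such windows of RefSeq genes, 45% hold at least 1 match and 26.7% hold 2 or more. TNRC6C, the other gene called here, has 4 windows, with 0, 2, 0 and 1 matches. The CCAAT letters, searched on both strands, occur in the AGO1 window once and in neither of the others, and 34.6% of all windows hold them. The TATA box letters TATAAA, searched on both strands, are in none of the 3 windows, and 11.5% of all windows hold it. The AGO4 window has 29 CpG dinucleotides, that of AGO1 has 30 and that of AGO3 has 50, where the median window has 14. These letters are a description of the windows and show no binding. RefSeq windows were found for 9 of the 10 genes; AGO2 had none.

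AGO1, the next gene after AGO4, stood on opposite sides of mock with the 2 duplexes. Its level was 10.60 with the segmented duplex and 9.97 with the intact duplex, against 10.31 and 10.29 on the mock arrays. The differences from mock, 0.30 and -0.32, did not pass (limma adjusted p = 0.217 and 0.137). The other AGO1 probe sets did not share the higher level with the segmented duplex, at -0.02 and -0.23. With the intact duplex all 3 AGO1 probe sets were lower than mock, by 0.32 to 0.92, and the dimmest of them passed the fit over all probe sets (limma adjusted p = 0.0270). With the mean of its probe sets in place of the brightest, AGO1 passed with the intact duplex, at -0.59 (limma adjusted p = 0.0346).

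AGO3, which lies after AGO1, had 1 probe set, at 6.26 with the segmented duplex and 5.62 with the intact duplex, against 5.68 and 5.85 on the mock arrays. The segmented array was the highest and the intact array the lowest. Neither difference from mock passed, at 0.50 and -0.14 (limma adjusted p = 0.126 and 0.521). AGO2, the main slicing Argonaute of human cells, had levels of 10.38 with the segmented duplex and 10.121 with the intact duplex, against 10.47 and 10.37 on the mock arrays. Its changes of -0.04 and -0.30 did not pass (limma adjusted p = 0.888 and 0.176), and the segmented array lay between the mock arrays. The 4 AGO2 probe sets ran from -0.28 to 0.02 with the segmented duplex and from -0.30 to 0.00 with the intact duplex, and 2 further probe sets shared with another gene were not used.

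The nearest protein-coding genes on either side of the Argonaute row were looked at after the values were seen, and neither was called higher. CLSPN, the checkpoint mediator gene on the AGO4 side, had levels of 10.68 with the segmented and 9.74 with the intact duplex, against 11.11 on each mock array. It fell by 1.37 with the intact duplex (limma adjusted p = 0.00965), and its -0.44 with the segmented duplex did not pass (limma adjusted p = 0.119). TEKT2, on the AGO3 side, stood at 4.78 with the segmented and 4.09 with the intact duplex, against 4.63 and 4.62 on the mock arrays. The change of TEKT2 with the intact duplex, -0.53, passed (limma adjusted p = 0.0494), and that with the segmented duplex, 0.15, did not (limma adjusted p = 0.484). The next gene out on the AGO4 side, C1orf216, stood at 0.48 with the segmented duplex (limma adjusted p = 0.122) and at 0.79 with the intact duplex (limma adjusted p = 0.0261), so the second of these was called higher. The next gene out on the AGO3 side, ADPRS, stood at -0.18 with the segmented duplex (limma adjusted p = 0.468) and at -0.23 with the intact duplex (limma adjusted p = 0.301). Neither ADPRS change passed.

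**Figure D2:**
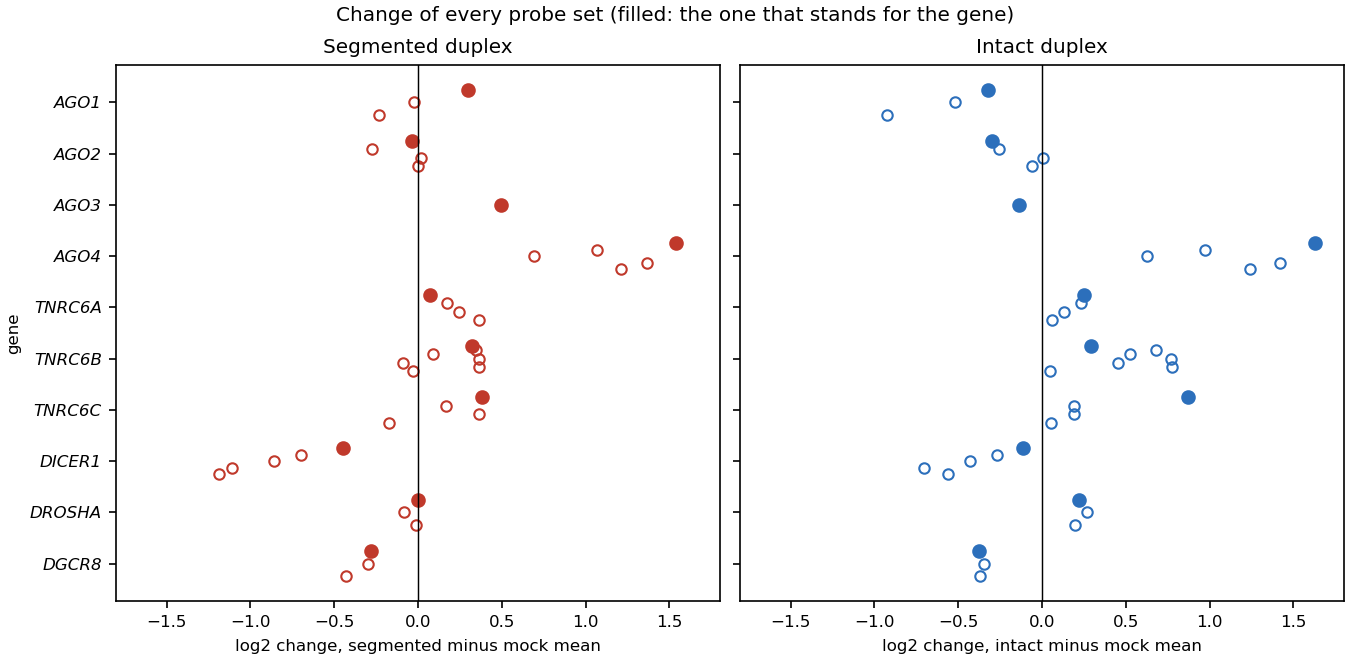
Log2 change from the mock mean for each of the 39 probe sets, with the segmented duplex on the left and the intact duplex on the right; the filled point is the brightest probe set of a gene. The 5 AGO4 probe sets lie above 0.6 and the 5 DICER1 probe sets below 0 in both panels, while TNRC6C has 1 probe set, at 0.87 with the intact duplex, apart from its others.

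The TNRC6 genes code for the scaffold proteins that link Argonaute to deadenylases. TNRC6C had a level of 9.37 with the segmented duplex and 9.86 with the intact duplex, against 8.99 on both mock arrays. Both duplex arrays lay above mock, and the intact array was the highest. TNRC6C rose by 0.87 with the intact duplex, a 1.83-fold difference (limma SE 0.12, adjusted p = 0.0183). Its 0.38 with the segmented duplex did not pass (limma adjusted p = 0.151). The rise rested on 1 of its 4 probe sets: the other 3, with mock levels from 4.51 to 5.51, stood 0.05 to 0.19 above mock with the intact duplex. With the mean of the 4 the change was 0.33 and did not pass (limma adjusted p = 0.121).

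TNRC6B had levels of 11.22 with the segmented duplex and 11.19 with the intact duplex, against 10.83 and 10.97 on the mock arrays. Both duplex arrays lay above both mock arrays, and the changes of 0.32 and 0.29 did not pass (limma adjusted p = 0.233 and 0.207). The 7 TNRC6B probe sets were all higher with the intact duplex, by 0.05 to 0.77, and 2 of them passed the fit over all probe sets, at 0.68 and 0.77 (limma adjusted p = 0.0451 and 0.0349). With the segmented duplex 5 of the 7 were higher and 2 lower, from -0.09 to 0.37. Averaged over its probe sets, TNRC6B passed with the intact duplex, at 0.51 (limma adjusted p = 0.0469). TNRC6A had levels of 11.55 with the segmented duplex and 11.73 with the intact duplex, against 11.43 and 11.53 on the mock arrays. Its 4 probe sets were higher on both duplex arrays than on both mock arrays, yet the changes of the brightest, 0.07 and 0.25, did not pass (limma adjusted p = 0.764 and 0.241). How many of all probe sets lie this way was not counted, and those of TNRC6A are not independent.

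DICER1 is the gene altered in this line, and its level was 10.80 with the segmented duplex and 11.13 with the intact duplex, against 11.21 and 11.28 on the mock arrays. The segmented array was the lowest and the intact array lay just under the mock arrays. The changes of -0.45 and -0.11 did not pass (limma adjusted p = 0.122 and 0.560). In each of the 5 DICER1 probe sets the same order was seen, with the segmented array lowest, the intact array next and both mock arrays above. The share of all probe sets in this order was not counted. The DICER1 probe sets read the same gene on the same arrays, so they are not independent. The changes ran from -1.19 to -0.45 with the segmented duplex and from -0.70 to -0.11 with the intact duplex. The widest gap was that of the dimmest probe set, with levels of 6.15 with the segmented and 6.78 with the intact duplex, against 7.26 and 7.42 on the mock arrays. Its limma adjusted p over all probe sets was 0.0548 with the segmented duplex, and none of the 5 passed with either duplex; at an unadjusted p under 0.05, 5 did with the segmented duplex (22.2% of all probe sets) and 2 with the intact duplex (33.5%). Averaged over its probe sets, DICER1 passed with the segmented duplex, at -0.86 (limma adjusted p = 0.0382). Where these probe sets lie relative to the altered part of the gene is not given, and unaltered cells were not analysed here, so the values say nothing about the alteration itself.

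DGCR8 had levels of 10.00 with the segmented duplex and 9.91 with the intact duplex, against 10.29 and 10.27 on the mock arrays. Both duplex arrays lay below both mock arrays. Its changes of -0.28 and -0.37 did not pass (limma adjusted p = 0.246 and 0.104), and its 3 probe sets were lower by 0.28 to 0.43 with the segmented and by 0.34 to 0.37 with the intact duplex. DROSHA had levels of 10.06 with the segmented duplex and 10.28 with the intact duplex, against 10.09 and 10.04 on the mock arrays. The segmented array lay between the mock arrays and the intact array above them. Its changes of 0.00 and 0.22 did not pass (limma adjusted p = 0.994 and 0.277), and its 3 probe sets stood within 0.09 of mock with the segmented and at 0.20 to 0.27 with the intact duplex. The partners of the Microprocessor therefore lay on opposite sides of mock with the intact duplex, with neither past the test.

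Levels with the segmented duplex were then set against those with the intact duplex, a single pair of compounds at 1 dose and 1 time. By limma's adjusted p 0 of the 10 genes and 0% of all genes differed; at an unadjusted p under 0.05, 3 of the 10 did, AGO1, AGO3 and TNRC6C, and 16.5% of all genes did. AGO1 was 1.54-fold higher with the segmented than with the intact duplex, a log2 difference of 0.62 with a 95% interval from 0.23 to 1.02 (limma adjusted p = 0.211). The AGO1 difference ran from 0.50 to 0.69 over its 3 probe sets. AGO3 was higher with the segmented duplex by 0.64, with an interval from 0.18 to 1.10 (limma adjusted p = 0.236). TNRC6C differed by -0.49, with an interval from -0.88 to -0.10 (limma adjusted p = 0.251).

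For AGO4 the segmented array was 0.09 below the intact array, with a 95% interval from -0.72 to 0.54 (limma adjusted p = 0.883). Over the 5 AGO4 probe sets the difference ran from -0.09 to 0.09. DICER1 differed by -0.33, with an interval from -0.74 to 0.07 (limma adjusted p = 0.352), and all 5 of its probe sets were lower with the segmented duplex, by 0.33 to 0.63. The intervals of the other 5 genes all held 0 and reached at most 0.68 upward and 0.62 downward. The intervals are not adjusted over the 10 genes and take their spread from the mock pair. For a gene whose interval holds 0, a difference as large as either end was not excluded by these arrays.

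**Figure D3:**
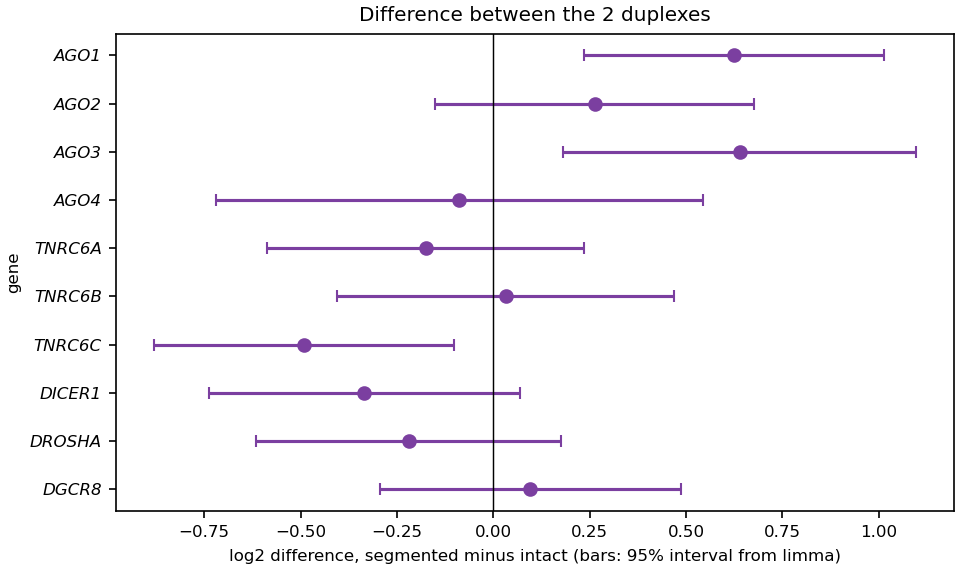
Log2 difference between the segmented and the intact duplex for each gene, with 95% intervals from limma that take their spread from the mock pair. AGO1 and AGO3 lie at 0.62 and 0.64 and TNRC6C at -0.49 with intervals that leave out 0, none with an adjusted p under 0.05, and AGO4 lies at -0.09.

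The genes nearest to a called member were looked up among genes whose mock level lay within 1 log2 unit of its own, by Euclidean distance between their 4 log2 levels after subtracting the mock mean. For AGO4, out of 2729 genes, these were DDIT4L (distance 0.08), KRT222 (0.17) and ARHGEF6 (0.21). DDIT4L, the nearest, stood at a change of 1.61 with the segmented and 1.61 with the intact duplex. For TNRC6C, out of 3701 genes, they were RAB3IP (0.03), AMOT (0.03) and NHSL1 (0.04). RAB3IP stood at a change of 0.37 with the segmented and 0.85 with the intact duplex. With 4 arrays, many genes can come this near.

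Other genes of the pathway were read from a list of 51 genes, of which 50 were measured. With the segmented duplex 2 of the 50 fell and 0 rose by limma's adjusted p, where 2.68% of all genes were called lower and 3.31% higher. At an unadjusted p under 0.05, 6 were lower and 4 higher, against 11.1% and 16.2% of all genes. With the intact duplex 9 fell and 4 rose, where 10.4% of all genes were called lower and 14.5% higher. The median change of the list was -0.03 with the segmented and -0.01 with the intact duplex.

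TSN codes for translin, which with its partner TSNAX forms the endonuclease C3PO that clears passenger strand fragments. TSN had a level of 10.58 with the segmented duplex and 9.92 with the intact duplex, against 11.96 and 12.04 on the mock arrays. It fell by 1.42 with the segmented duplex (limma SE 0.13, adjusted p = 0.0354) and fell by 2.08 with the intact duplex (limma SE 0.13, adjusted p = 0.00824). All of the duplex values lay below the mock values, and all 3 TSN probe sets went the same way with both duplexes, while TSNAX stood at 0.24 and 0.05 and did not pass (limma adjusted p = 0.350 and 0.808). ERI1, an exoribonuclease that trims small RNAs and histone messages, had a level of 9.78 with the segmented duplex and 9.52 with the intact duplex, against 10.77 and 10.82 on the mock arrays. ERI1 fell by 1.01 with the segmented duplex (limma adjusted p = 0.0407) and by 1.27 with the intact duplex (limma adjusted p = 0.0106). TSN and ERI1 were the 2 list genes called with the segmented duplex, and both were also called with the intact duplex.

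Among genes whose proteins associate with Argonaute complexes, 4 fell and 2 rose of 12 measured with the intact duplex, and 0 of 12 passed by limma's adjusted p with the segmented duplex (3 at an unadjusted p under 0.05, as did 27.4% of all genes). Over all genes 10.4% were called lower and 14.5% higher with the intact duplex. The list was chosen with earlier results of these data known, so these counts are a description only. GEMIN4, first described in the SMN complex, fell by 1.42 with the intact duplex (limma adjusted p = 0.0116), with levels of 10.97 with the segmented and 10.22 with the intact duplex, against 11.73 and 11.55 on the mock arrays. The helicase gene MOV10 fell by 1.24 with the intact duplex (limma adjusted p = 0.0110), and its -0.81 with the segmented duplex had a limma adjusted p of 0.0508. The LIM protein gene WTIP fell by 0.90 with the intact duplex (limma adjusted p = 0.0434). FMR1, whose RNA-binding protein acts in translational control, rose by 0.80 with the intact duplex (limma adjusted p = 0.0250), and its 0.43 with the segmented duplex did not pass (limma adjusted p = 0.138). SND1, at -0.55 (limma adjusted p = 0.0491), and AJUBA, at 0.67 (limma adjusted p = 0.0330), were the others called with the intact duplex in this group. They are named after their values were seen, as are the next 3 genes. PRKRA, a Dicer partner, rose by 0.53 with the intact duplex (limma adjusted p = 0.0493), while its 0.62 with the segmented duplex did not pass (limma adjusted p = 0.0712). For PRKRA the segmented array was 0.08 above the intact array (limma adjusted p = 0.807). METTL3, the adenosine methyltransferase gene, fell by 0.61 with the intact duplex (limma adjusted p = 0.0414). The chaperone partner gene FKBP5 fell by 0.73, with 1 of its 2 probe sets going the other way.

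SRRT, whose product ARS2 couples capped transcripts to the Microprocessor, fell by 0.86 with the intact duplex (limma adjusted p = 0.0260), and all 3 SRRT probe sets were lower. XPO5, the exporter of precursor hairpins, and TARBP2, the main Dicer partner, did not pass with either duplex. XPO5 stood at -0.11 with the segmented and 0.00 with the intact duplex (limma adjusted p = 0.682 and 0.987). TARBP2 stood at -0.07 and 0.34 (limma adjusted p = 0.741 and 0.124).

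LIN28B, the blocker of let-7 maturation, had a level of 3.43 with the segmented and 3.60 with the intact duplex, against 3.74 and 3.48 on the mock arrays, and did not pass (limma adjusted p = 0.561 and 0.970). The germline Argonaute genes PIWIL1, PIWIL2, PIWIL3 and PIWIL4, which act with piRNAs in germ cells, had mean mock levels of 3.95, 2.92, 2.73 and 4.39. PIWIL2 had levels of 3.58 with the segmented and 3.76 with the intact duplex, against 2.93 and 2.91 on the mock arrays, and was called higher with the intact duplex. Its changes were 0.65 with the segmented duplex (limma adjusted p = 0.0653) and 0.84 with the intact duplex (limma adjusted p = 0.0195), and whether these levels lie above background was not tested.

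**Figure D4:**
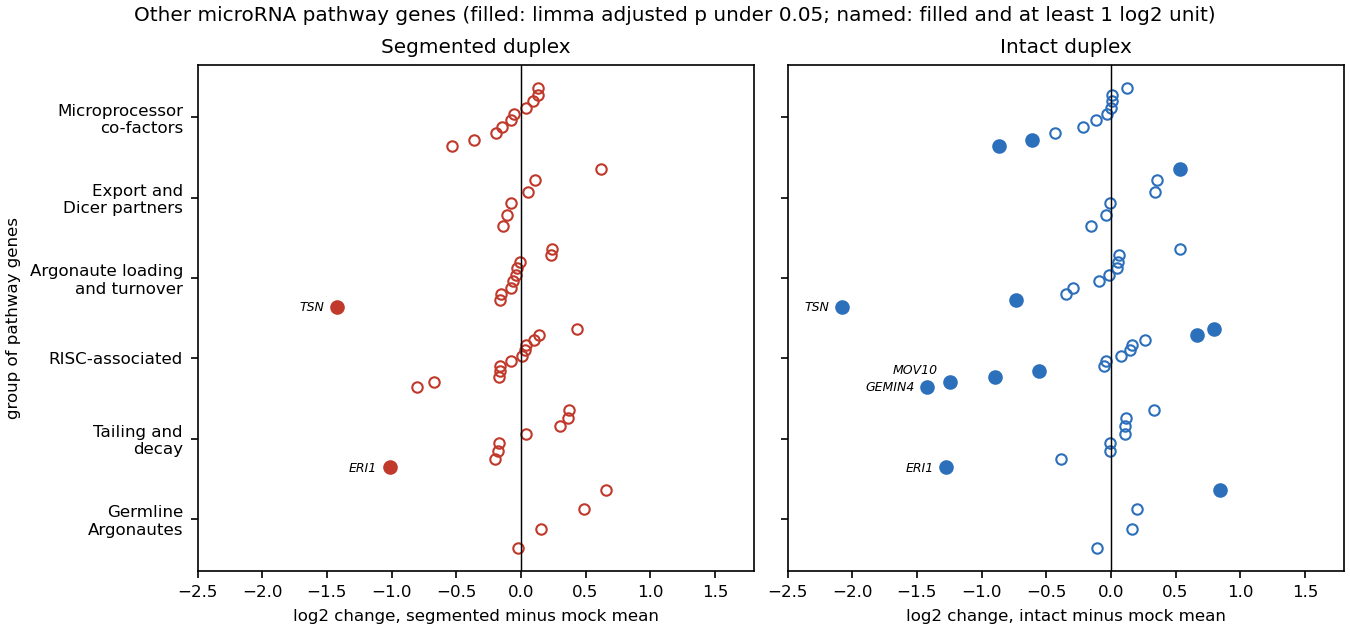
Log2 change from the mock mean for the 50 other pathway genes in 6 groups, with the segmented duplex on the left and the intact duplex on the right; filled points passed limma's adjusted p of 0.05, and those past 1 log2 unit are named. TSN lies at -1.42 and -2.08 and ERI1 at -1.01 and -1.27. With the intact duplex GEMIN4 lies at -1.42 and MOV10 at -1.24. Filled points are 2 of 50 with the segmented duplex (5.99% of all genes passed) and 13 of 50 with the intact duplex (24.9%).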

How the data were processed

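Total RNA of 4 samples was amplified, labelled with biotin and hybridised to one-colour arrays. The deposited values are intensities, 1 for each probe set on each array. Per the submitters' processing notes they come from RMA, which corrects background, normalizes by quantiles and summarises probes; no RMA version is named. The rule for choosing the genes calls these values log2, but they run up to 22268 and were taken as linear intensities. Quantile normalization would remove a change shared by most genes. Precision is limited by the number of arrays.

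The log2 of each intensity was taken without a pseudocount. Of 52377 probe sets, 35184 had 1 gene in the platform annotation, 374 several and 16819 were not listed; symbols were updated through Entrez identifiers to RefSeq names, which 35134 matched. The probe set with the highest mean stood for a gene. limma 3.58.1 in R 4.3.3 was fitted over all 4 arrays with a mean for each of 3 groups (1 residual degree of freedom, 2.89 prior), with Benjamini-Hochberg adjustment over 19798 genes, and again over all probe sets. The fit was tested on simulated data. Alternatives tried: quantile normalization once more, centring on medians, leaving out the dimmest 40%, a trended and robust prior, the mean of probe sets, a pseudocount of 16 and leaving out either mock array.

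All 10 members are named; of the pathway list, genes past the threshold, up to the 8 largest changes per comparison with mock, plus LIN28B, XPO5, TARBP2, GEMIN4 and the germline Argonautes. Members and lists were chosen with earlier results of these data known. LIMD1 of the pathway list and KRT8 of the colon markers had no probe set of their own. Seed matches in messages were not analysed here, and no miR-124 sequence was used here.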

Additional observations from a re-analysis of the deposited data

How the results depend on the processing

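In the gene-level fit the AGO4 rise kept its direction and its side of the threshold with both duplexes under every alternative that gives a test. It ran from 1.18 to 1.54 with the segmented and from 1.18 to 1.63 with the intact duplex, and without a mock array, a value with no test, from 1.37 to 1.72 and from 1.46 to 1.81. Counts of calls varied with the settings. With the dimmest 40% left out, members called were 4 (segmented), 4 (intact) and 3 (difference of the duplexes), in place of 1, 2 and 0. Member probe sets called were 9 and 14 of 37 present, in place of 0 and 8 of 39. Pathway list genes called were 8 (segmented), 17 (intact) and 5 (difference) of 43 present, in place of 2, 13 and 0 of 50. With the trended and robust prior these counts were 5, 7 and 3 members, 13, 21 and 3 probe sets, and 11, 18 and 8 list genes. With the pseudocount of 16 they were 4, 4 and 1 members, 10 and 15 probe sets, and 7, 18 and 3 list genes. With a further quantile normalization 3, and with arrays centred on their medians 4, member probe sets passed with the segmented duplex. With the mean of probe sets 2 members passed with the segmented and 3 with the intact duplex, in place of 1 and 2. Members at least 1.5-fold from both mock arrays were then 2 with the segmented and 1 with the intact duplex, in place of 1 and 2. The shares of all genes called moved with these settings: 40.2% (segmented), 58.5% (intact) and 15.6% (difference) with the dimmest left out, 27.4%, 39.4% and 12.2% with the trended prior, and 21.6%, 35.5% and 5.75% with the pseudocount. Those of all probe sets were 23.4%, 44.5% and 1.91%, then 19.3%, 31.1% and 7.55%, then 14.2%, 27.5% and 1.24%, and for the segmented duplex 2.92% after quantile normalization and 4.31% after centring. With the mean of probe sets 6.88% of all genes passed with the segmented and 25.3% with the intact duplex. limma's prior SD was 0.0951 with 5.999 degrees of freedom once the dimmest were left out, against 0.114 with 2.89 as reported; the cause of the shifts was not tested. The members that passed under some alternative but in neither comparison with mock as reported were AGO1, AGO2, AGO3, DGCR8, DICER1, TNRC6A and TNRC6B. The 240 single-gene values under alternatives include those without a mock array, which have no test and could neither pass nor fail. Of the 240, 29 newly passed, 1 (TNRC6C, intact) no longer passed, and 5 changed sign, none of them past the threshold. No paired analysis was possible because each duplex has 1 array and the groups share fewer than 2 replicate numbers.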
